A study of Homo sapiens with 2 samples.

Results

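The Krueppel-like factors (KLFs) examined here are the 10 genes KLF2, KLF3, KLF4, KLF5, KLF6, KLF7, KLF9, KLF10, KLF11 and KLF13, taken by Ensembl identifier and current symbol from a deposited table of 63677 genes. All 10 were found, and each was measured well above the detection limit. RNA sequencing compared 2 libraries of HGC-27, an established human gastric carcinoma line. The lncPSCA library came from cells transfected with the plasmid pcDNA3.1-lncPSCA, which carries a long non-coding RNA. The control library came from cells given the empty plasmid pcDNA3.1. Both cultures were transfected with the reagent INTERFERin and collected after 48 hours, so both went through transfection. A difference between the cultures in transfection cannot be told apart from one that goes with the insert. Each group is 1 library of 1 cell line, and every difference below is a difference between these libraries without a replicate check.

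KLFs are transcription factors that bind GC-rich and CACCC-type sequences in promoters through C2H2 zinc fingers at their carboxyl end, a feature they share with the SP factors. Outside the zinc fingers they differ. KLF2, KLF4, KLF5, KLF6 and KLF7 carry activating domains, although several of them can also repress; KLF3, KLF8 and KLF12 recruit the corepressor CtBP; and KLF9, KLF10, KLF11, KLF13, KLF14 and KLF16 recruit SIN3 and its histone deacetylases. In the gut epithelium, KLF4 is known for its place in differentiated cells and KLF5 for its place in dividing crypt cells, and many KLF transcripts are short-lived and respond quickly to stress, growth factors or hormones.

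The lncPSCA library held 23016646 reads and the control library 21552098 reads. Reads were turned into CPM, a share of the library total, after edgeR's TMM scaling, and 15440 genes with a mean of at least 1 CPM over both libraries are called measured. The log2 ratio of lncPSCA over control uses a pseudocount of 1 read; folds are ratios of CPM with an exact 95% interval that covers counting error only. A gene met the size rule when it was measured, differed at least 2-fold and had an interval wholly beyond 1.5-fold. The median log2 ratio of all measured genes was -0.02. Interferon-stimulated genes stood far apart: all 10 of a list of such genes were higher in the lncPSCA library, with a summed level of 5029 CPM in lncPSCA and 296 CPM in control. Their part in the KLF values was not tested. Of 8 epithelial and gastric markers, 5 were below 1 CPM, with EPCAM at 7 reads in each library, KRT18 at 0 reads in lncPSCA and 4 in control, and TFF1 at 0 in both. The other 3 were low. MUC1 was at 7.02 CPM in lncPSCA and 4.98 CPM in control, the one marker of the 8 with a counting interval above 1, KRT8 was at 2.47 and 3.13 CPM in lncPSCA and control, and CDH1 was at 0.851 and 1.23 CPM. The mesenchymal marker VIM had 2594 CPM in lncPSCA and 2601 CPM in control. COL1A1, listed as a marker of other cell types, had 1042 CPM in lncPSCA and 1112 CPM in control. DCN, from the same list, had 153 CPM in lncPSCA and 161 CPM in control, while PECAM1, CDH5 and CD3E had no reads. Of the 8 markers in that list 3 were measured. The remaining measured marker had a log2 ratio of 0.60, with a counting interval that spanned 1.

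The promoters of the members are shown first, because KLF proteins recognise GC-rich sequence, which several KLF genes carry at their own start. RefSeq windows (build GRCh38.p14) from 250 bases before to 50 bases after an annotated start were matched by symbol for 8 of the 10 members, 13 windows in all. The 4 windows below, 5′ to 3′, belong to the 3 members with the largest ratio and to KLF13, the member that was lower. Capitals mark every GC box, spelled GGGCGG, and in KLF2 alone a MEF2 site. They also mark boxes that read CACCC, and each motif was searched on both strands.
KLF2 (chr19:16324576-16324875, plus strand): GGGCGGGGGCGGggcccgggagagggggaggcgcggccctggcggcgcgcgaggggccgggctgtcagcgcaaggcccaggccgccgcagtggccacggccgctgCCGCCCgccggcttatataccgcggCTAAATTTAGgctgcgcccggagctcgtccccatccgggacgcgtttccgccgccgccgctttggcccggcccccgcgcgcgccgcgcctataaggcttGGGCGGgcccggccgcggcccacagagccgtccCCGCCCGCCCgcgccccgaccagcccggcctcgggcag
KLF4 (chr9:107489720-107490019, minus strand): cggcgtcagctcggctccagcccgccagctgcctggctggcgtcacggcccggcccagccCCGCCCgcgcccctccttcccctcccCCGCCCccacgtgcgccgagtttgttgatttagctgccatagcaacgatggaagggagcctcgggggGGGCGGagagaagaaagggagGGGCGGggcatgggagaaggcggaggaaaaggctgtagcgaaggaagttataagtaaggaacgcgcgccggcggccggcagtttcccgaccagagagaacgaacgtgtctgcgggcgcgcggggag
KLF9 (chr9:70414608-70414907, minus strand): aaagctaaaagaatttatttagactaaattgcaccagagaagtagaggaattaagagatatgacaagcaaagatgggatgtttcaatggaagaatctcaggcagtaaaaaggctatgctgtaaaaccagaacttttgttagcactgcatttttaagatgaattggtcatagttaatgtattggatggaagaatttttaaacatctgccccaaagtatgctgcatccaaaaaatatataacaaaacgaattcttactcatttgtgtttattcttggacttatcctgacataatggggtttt
KLF13 (chr15:31326585-31326884, plus strand): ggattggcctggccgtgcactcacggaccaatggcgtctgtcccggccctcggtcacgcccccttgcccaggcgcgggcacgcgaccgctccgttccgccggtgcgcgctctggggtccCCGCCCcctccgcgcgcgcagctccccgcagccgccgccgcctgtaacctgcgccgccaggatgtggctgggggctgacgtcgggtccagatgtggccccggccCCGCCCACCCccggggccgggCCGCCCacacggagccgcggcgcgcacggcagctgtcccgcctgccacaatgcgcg

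The KLF2 window had 6 GC boxes and was 80.7% G or C, and the KLF4 window had 4 GC boxes. KLF13 had 3 GC boxes and 1 CACCC box, while the KLF9 window, at 32.7% G or C, had neither. Among the 13 member windows, 8 held a GC box (61.5%), against 44.95% of all 35116 windows in the table, and 7 held a CACCC box (53.8%), against 59.9%. The MEF2 site of KLF2 occurred in 0.572% of all windows and in no other member window. The interferon regulatory factor element GAAANNGAA was in none of the 13 member windows and in 8.11% of all windows; the STAT element TTCNNNGAA was in 1 member window, a KLF7 window, and in 7.66% of all. The AP-1 site TGANTCA was in none of the 13 and in 7.71% of all. The CREB and ATF half-site TGACG was in 4 of the 13 (30.8%) and in 24.55% of all. The SMAD box CAGAC was in 5 (38.5%) and in 45.3% of all. The glucocorticoid receptor half-site AGAACA was in 2 (15.4%) and in 14.8% of all, and a CArG box in 1 (7.69%) and in 1.29% of all. TATAA was found in 4 of the 13 windows and in 20.4% of all, and in KLF2 it lay both 133 and 31 bases before the start. A match describes letters in these windows, and no binding was measured.

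Across the family, transcripts of 9 of the 10 members were more abundant in the lncPSCA library and KLF13 was less abundant. Of all measured genes, 48.1% had a log2 ratio above 0. KLF2 alone met the size rule as higher, and no member met it as lower; over all measured genes 3.02% met the rule as higher and 0.596% as lower. The other 9 members met it in neither direction. Counting error was smaller than each difference: the interval lay wholly above 1 for 9 members, against 27.0% of measured genes, and wholly below 1 for KLF13, against 32.1%. The median log2 ratio of the 10 members was 0.52, and their ratios ran from -0.27 to 1.46. Summed over the members, 11267 reads in lncPSCA stood against 7643 in control, or 479 against 362 CPM, a 1.32-fold difference (1.29 to 1.36). Without KLF2 the sum was 1.27-fold higher (1.24 to 1.31). The members were listed with results of these data known, and the 2 other measured family genes, KLF12 and KLF16, lie on opposite sides of 0. Over all 17 KLF genes in the table the summed difference was 1.19-fold (1.16 to 1.22), with KLF16, at 2183 reads in lncPSCA and 2587 in control, among them.

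**Figure D1:**
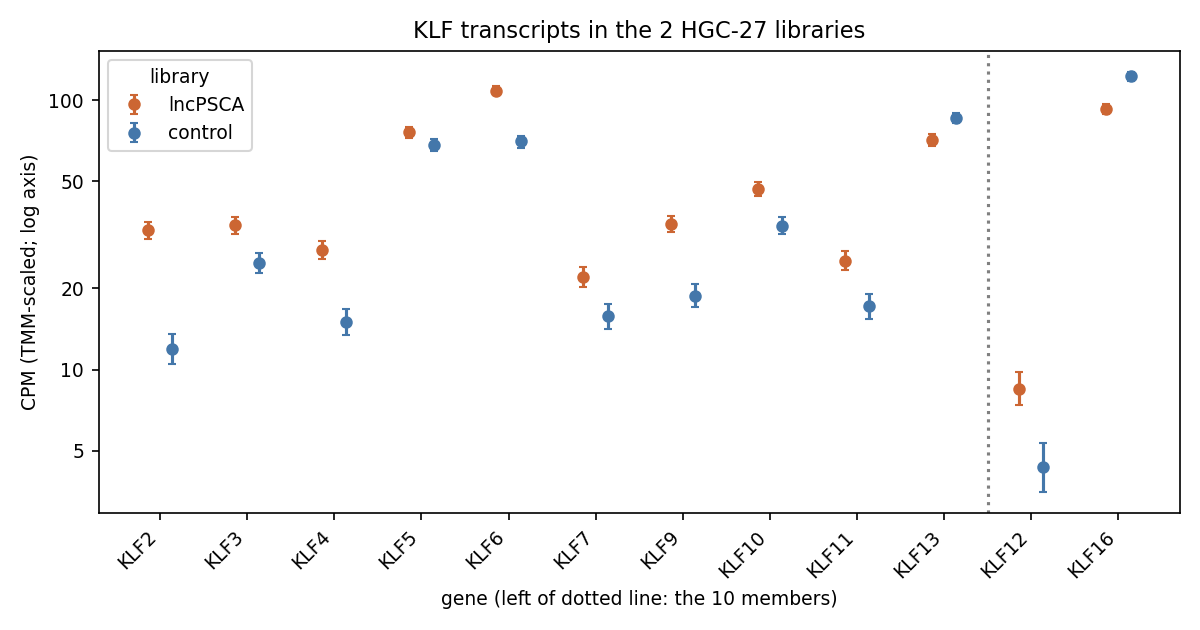
Level of each measured KLF gene in the lncPSCA library (left point of each pair) and the control library (right point), in TMM-scaled CPM on a log axis, with 95% counting intervals. In 9 of the 10 members left of the dotted line the lncPSCA point is the higher one, most clearly for KLF2 (32.9 against 11.9 CPM), and KLF13 and KLF16 are the pairs in which it is lower.

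Within the activating group, KLF2 differed most. KLF2 (ENSG00000127528), which keeps T cells quiescent and answers fluid flow in endothelium, had 774 reads in lncPSCA and 252 in control, or 32.9 and 11.9 CPM. This was a 2.76-fold difference (2.39 to 3.19), and 1.51% of measured genes had a log2 ratio at least as large as its 1.46. KLF2 contributed 6.87% of the members' reads in lncPSCA and 3.30% in control. KLF4 (ENSG00000136826), an epithelial differentiation factor and a reprogramming factor, had 653 and 317 reads in lncPSCA and control, at 27.8 and 15.0 CPM. Its 1.85-fold difference (1.61 to 2.12) fell short of the 2-fold limit, although its log2 ratio of 0.88 was matched or exceeded by only 5.14% of measured genes.

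KLF6 (ENSG00000067082), a broadly expressed factor induced by injury and described as a tumour suppressor, was higher by an intermediate step. It had 2544 reads in lncPSCA and 1482 in control, at 108 and 70.2 CPM, a difference of 38.0 CPM and 1.54-fold (1.44 to 1.64). KLF7 (ENSG00000118263), known from mice for its part in outgrowth of neurons, had 520 reads in lncPSCA and 333 in control. Its levels were 22.1 and 15.8 CPM, 1.40-fold apart (1.22 to 1.61). KLF5 (ENSG00000102554), the growth-associated factor of crypt cells, was the flattest of the group, with 1786 reads in lncPSCA and 1440 in control. It stood at 76.0 CPM in lncPSCA and 68.2 CPM in control, 1.11-fold (1.04 to 1.19), and 34.1% of measured genes had a ratio as large. Of the group, all 5 had a counting interval above 1, against 27.0% of all measured genes, and their median log2 ratio was 0.62.

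KLF3 (ENSG00000109787), the CtBP-binding repressor of the list, had 806 reads in lncPSCA and 526 in control. At 34.3 and 24.9 CPM it differed 1.38-fold (1.23 to 1.54). Of its CtBP-binding relatives, KLF12, known as a repressor of the AP-2 alpha gene, had 200 reads in lncPSCA and 92 in control, or 8.51 and 4.36 CPM. KLF12 was at 1.95-fold (1.52 to 2.53), just under the size rule, and met it with a log2 ratio of 1.02 under total-count scaling. KLF8 was nearly silent, with 0 reads in lncPSCA and 1 in control.

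The SIN3-binding group went both ways. KLF9 (ENSG00000119138), a gene induced by glucocorticoids and thyroid hormone, had 815 reads in lncPSCA and 397 in control, at 34.7 and 18.8 CPM. Its fold of 1.84 (1.63 to 2.08) could not be told apart from that of KLF4 by counting error: the ratio of their folds, KLF4 over KLF9, was 1.003 (0.838 to 1.201). KLF11 (ENSG00000172059), a relative of KLF10 that also responds to TGF-beta, had 596 and 362 reads in lncPSCA and control, at 25.4 and 17.2 CPM, 1.48-fold apart (1.29 to 1.69). KLF10 (ENSG00000155090), named for its early induction by TGF-beta, had 1102 reads in lncPSCA and 722 in control. It was at 46.9 and 34.2 CPM, a 1.37-fold difference (1.25 to 1.51).

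KLF13 (ENSG00000169926), known in T cells as an activator of the chemokine gene CCL5, was the one member lower in the lncPSCA library. It had 1671 reads in lncPSCA and 1812 in control, or 71.1 and 85.9 CPM, a fold of 0.828 (0.774 to 0.885). Its share of the members' reads was 14.8% in lncPSCA and 23.7% in control. KLF16, which is closely related to it, was lower too, with 2183 reads in lncPSCA and 2587 in control, at 92.9 and 123 CPM and a fold of 0.757 (0.715 to 0.802). Both are far from the 2-fold limit: 23.9% of measured genes had a log2 ratio as low as KLF13's or lower, and 13.5% as low as KLF16's. CCL5 itself had no reads in either library.

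**Figure D2:**
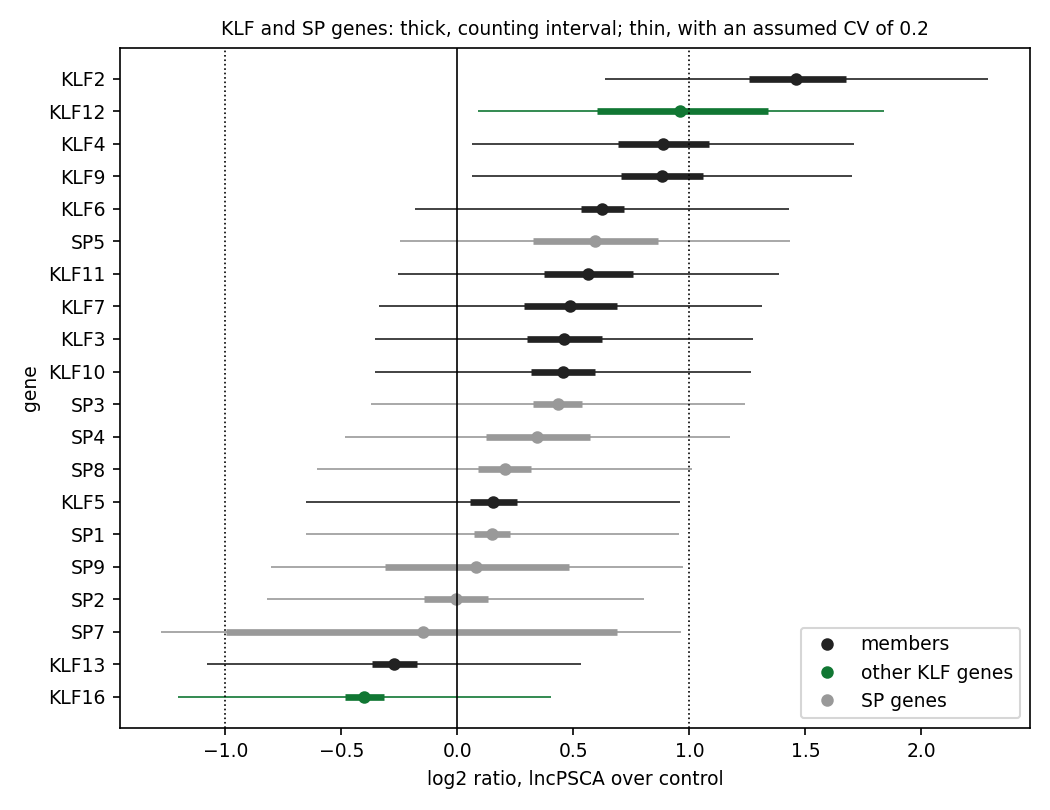
Log2 ratio of lncPSCA over control for the 10 members, the 2 other measured KLF genes and 8 SP genes, ordered by ratio, with counting intervals as thick lines and intervals that add an assumed coefficient of variation of 0.2 between cultures as thin lines. KLF2 is the only point beyond the dotted line at 1, KLF13 and KLF16 lie lowest, and the SP genes lie between -0.15 and 0.59.

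No second culture shows how far KLF transcripts vary by themselves, so intervals were widened by assumed values of that variation. With an assumed coefficient of variation of 0.1 the widened interval lay wholly above 1 for 8 members, against 13.2% of measured genes, and below 1 for none, against 10.2%. At 0.2 it lay above 1 for KLF2 (1.56 to 4.89), KLF4 (1.05 to 3.27) and KLF9 (1.04 to 3.25), against 5.10% of measured genes, and below 1 for no member, against 1.46%. At 0.4 it lay above 1 for no member, against 1.11% of measured genes, and below 1 for none, against 0.117%. Under 0.2, KLF2 still met the size rule.

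Ordered by fold, each member was compared with the next, with intervals that cover counting error only. Variation between cultures is not in these intervals, so the order describes these libraries alone. KLF2 was above KLF4 by a ratio of folds of 1.49 (1.23 to 1.81), and KLF9 above KLF6 by 1.196 (1.04 to 1.37). From KLF6 through KLF11, KLF7 and KLF3 to KLF10, no neighbour differed from the next beyond counting error. Members further apart in the order were not compared, so this run need not share a single fold. KLF10 was above KLF5 by 1.23 (1.10 to 1.38), and KLF5 above KLF13 by 1.34 (1.22 to 1.48).

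Levels can be compared between genes only per length, so reads were also divided by merged exon length in GENCODE release 29, an annotation of another build than the authors' hg19, giving RPKM, reads per kilobase of exon scaled to library size. On this scale KLF16 led the 12 measured KLF genes, with 31.4 RPKM in lncPSCA and 41.5 in control. KLF5 was second in both libraries, at 19.5 and 17.5 RPKM in lncPSCA and control, and KLF6 came next, at 17.6 and 11.4. Close ranks depend on the length used. Merged exons of KLF6 have 6139 bases and its longest transcript 4656, and those of KLF13 have 9409 and 6825. KLF2 ranked 4 of 12 in lncPSCA, at 16.3 RPKM, an interval that overlapped that of KLF6. In control it ranked 6, at 5.92 RPKM, below KLF13 (9.13) and KLF10 (8.55). KLF13 ranked 7 in lncPSCA, at 7.55 RPKM beside KLF4 at 7.59, and these did not differ beyond counting error. KLF7 and KLF12 were the lowest in both libraries, KLF7 at 2.39 RPKM in lncPSCA and 1.70 in control. In control, KLF4, KLF3, KLF11 and KLF9 followed each other at ranks 7 to 10, from 4.11 to 3.64 RPKM, with overlapping intervals between neighbours. The order was the same at both ends and differed in between. KLF2 ranked higher in lncPSCA than in control, KLF13 and KLF3 (rank 10 in lncPSCA and 8 in control) ranked lower, and KLF9 ranked 8 in lncPSCA and 10 in control, although its control level overlapped that of KLF11.

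**Figure D3:**
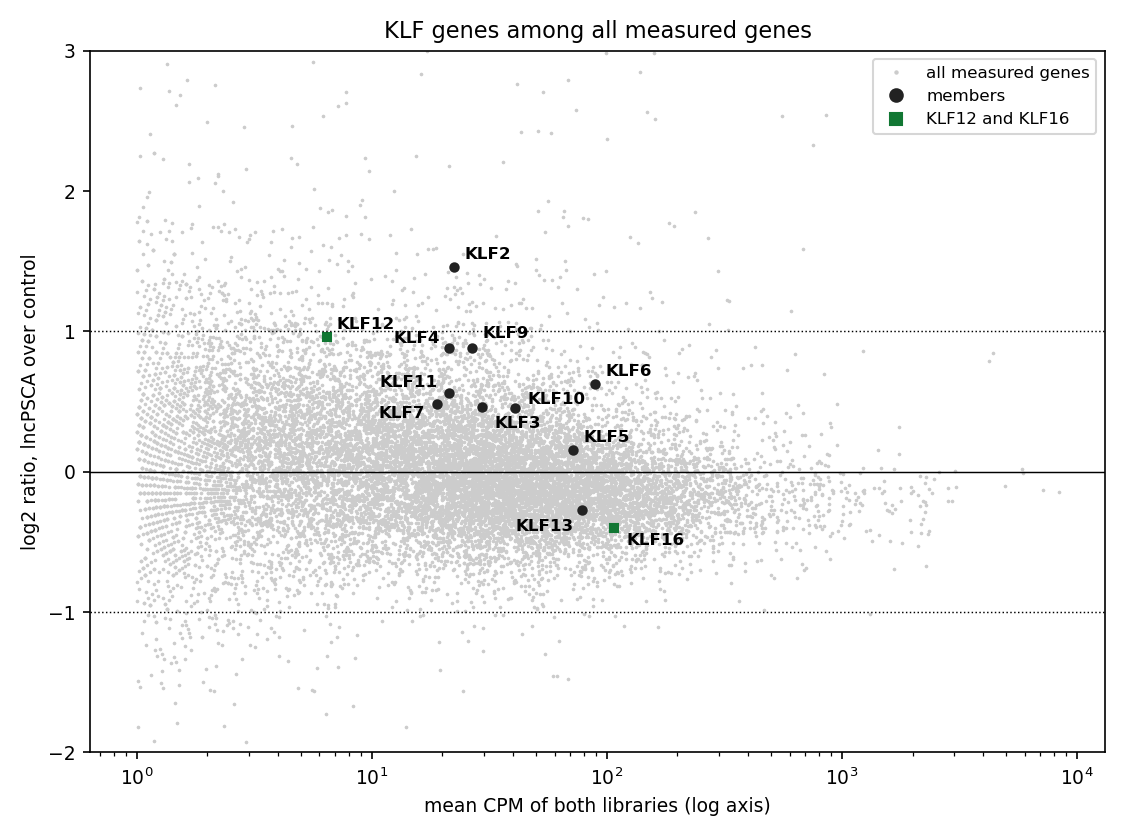
Log2 ratio of lncPSCA over control against mean CPM of both libraries (log axis) for the 15440 measured genes, with the members as black points and KLF12 and KLF16 as squares. The vertical axis runs from -2 to 3, which leaves out 67 genes above and 10 below; KLF2 sits above the dotted line at 1 and the other members within the cloud.

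The size of the ratios was set against transcript length, mean CPM and base composition. Across measured genes the log2 ratio followed length (Spearman 0.236 over 14993 genes) and mean CPM (-0.226). It hardly followed GC content (-0.010). Genes of the same length as KLF7, whose longest transcript has 8362 bases, had a median log2 ratio of 0.18, and KLF7's own ratio of 0.49 came to 0.31 once centred along length. For KLF2, with 2018 bases, the median at that length was -0.09, and centring gave 1.55. KLF13, with 6825 bases, came to -0.41. Under 3 other scalings and centring along length, mean expression or GC content, each member kept the sign of its ratio, as did KLF12 and KLF16. KLF12, with 10637 bases, had the largest drop, being 0.96 as reported and 0.64 when centred along length.

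Reads of related sequences were looked at beside KLF2. Of its 4 processed pseudogenes, KLF2P1 had 51 reads in lncPSCA and 14 in control, KLF2P4 had 69 and 16, and KLF2P2 and KLF2P3 had none. KLF2P1 and KLF2P4 together were 3.59-fold higher (2.39 to 5.55), in the same direction as KLF2. The pseudogenes were 80.8% (KLF2P1) and 83.0% (KLF2P4) identical to the KLF2 transcript over the aligned part, with longest identical runs of 28 and 32 bases. The aligned part covered 49.9% (KLF2P1) and 37.1% (KLF2P4) of the KLF2 transcript. The first 60 coding bases of KLF2 that align without a gap to both, bases 117 to 176 of its transcript, are shown as an example. They let a reader see how far reads from this stretch could be told apart. The stretch was taken by position and need not be typical of the aligned part. Capitals mark the 6 positions that differ.
KLF2 (chromosome 19): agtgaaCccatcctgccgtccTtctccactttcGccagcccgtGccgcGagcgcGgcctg
KLF2P1 (chromosome 2): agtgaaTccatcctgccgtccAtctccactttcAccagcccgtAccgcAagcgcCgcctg
KLF2P4 (chromosome 2): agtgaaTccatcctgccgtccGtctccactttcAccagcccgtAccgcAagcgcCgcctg
With the reads of both pseudogenes added, KLF2 had 894 reads in lncPSCA and 282 in control, 2.85-fold (2.49 to 3.26). Whether reads of KLF2 were counted on its pseudogenes, or the reverse, was not tested. KLF3, KLF11 and KLF16 also have exons overlapped by genes on the opposite strand. These are KLF3-AS1 (103 reads in lncPSCA, 70 in control), AC104794.4 over KLF11 (48 in lncPSCA, 26 in control) and AC012615.3 over KLF16 (530 in lncPSCA, 738 in control). The KLF16 overlap spans 483 exon bases, and AC012615.3 was lower in lncPSCA as KLF16 was. Reads of each pair cannot be told apart if counting ignored strand, which no label states.

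Of the family outside the list, 6 of 8 genes were not measured. KLF1, the erythroid factor, had 4 reads in lncPSCA and 0 in control, and KLF15, known from muscle and liver, had 2 and 0. KLF14 and KLF17 had none in either library, and KLF18 was not matched to a row. The SP genes share the zinc fingers. Of 9, 8 were measured and none met the size rule, which 3.02% of all measured genes met as higher and 0.596% as lower. Their median log2 ratio was 0.18. The counting interval lay above 1 for 5 of the 8, against 27.0% of measured genes, and below 1 for none, against 32.1%. Summed, they were 1.17-fold higher (1.13 to 1.21). SP5, a Wnt target, was at 13.2 CPM in lncPSCA and 8.77 in control, 1.51-fold (1.25 to 1.82). SP3 was at 78.9 and 58.5 CPM in lncPSCA and control, 1.35-fold (1.25 to 1.45), and SP4 at 17.2 and 13.6 CPM, 1.27-fold (1.09 to 1.48). SP1, the founding member, stood at 128 and 116 CPM, 1.11-fold (1.05 to 1.17), and its ratio turned to -0.03 when centred along length. SP8 was at 62.1 and 53.9 CPM in lncPSCA and control. SP2, SP7 and SP9 did not differ beyond counting error, and SP6 had only 13 reads in lncPSCA and 4 in control.

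In the ERK5 and MEF2 route, the kinase cascade that induces KLF2 and KLF4, none of 6 measured members of 8 met the size rule and the median log2 ratio was -0.02, a sign that turned under centring along mean expression (0.06). MEF2D, with the highest CPM of the list, was at 54.5 CPM in lncPSCA and 58.0 in control, and its log2 ratio of -0.09 turned to 0.02 when centred along mean expression. The kinase ERK5 itself, MAPK7, was at 43.0 and 45.6 CPM in lncPSCA and control. Among 11 corepressors and coactivators, KAT2B, an acetyltransferase, alone met the rule, as higher, with 150 reads in lncPSCA and 65 in control, 2.07-fold (1.54 to 2.82). Over all measured genes, 3.02% met the rule as higher. The list median was -0.09 and also turned positive under that centring (0.02). None of 6 ubiquitin ligases known to act on KLF proteins met the rule. Those with the highest CPM were ITCH, at 70.6 CPM in lncPSCA and 57.5 in control, and VHL, at 63.8 and 76.6. In the TGF-beta route to KLF10 and KLF11, none of 12 measured genes of 13 met the rule. The receptor gene TGFBR2 was the one not measured, with 6 reads in lncPSCA and 1 in control. TGFB1 was at 160 CPM in lncPSCA and 157 in control. The transducer SMAD2 was at 100.04 and 87.8, a log2 ratio of 0.19 that turned to -0.14 when centred along length. The list median of -0.07 turned to 0.004 when centred along mean expression.

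**Figure D4:**
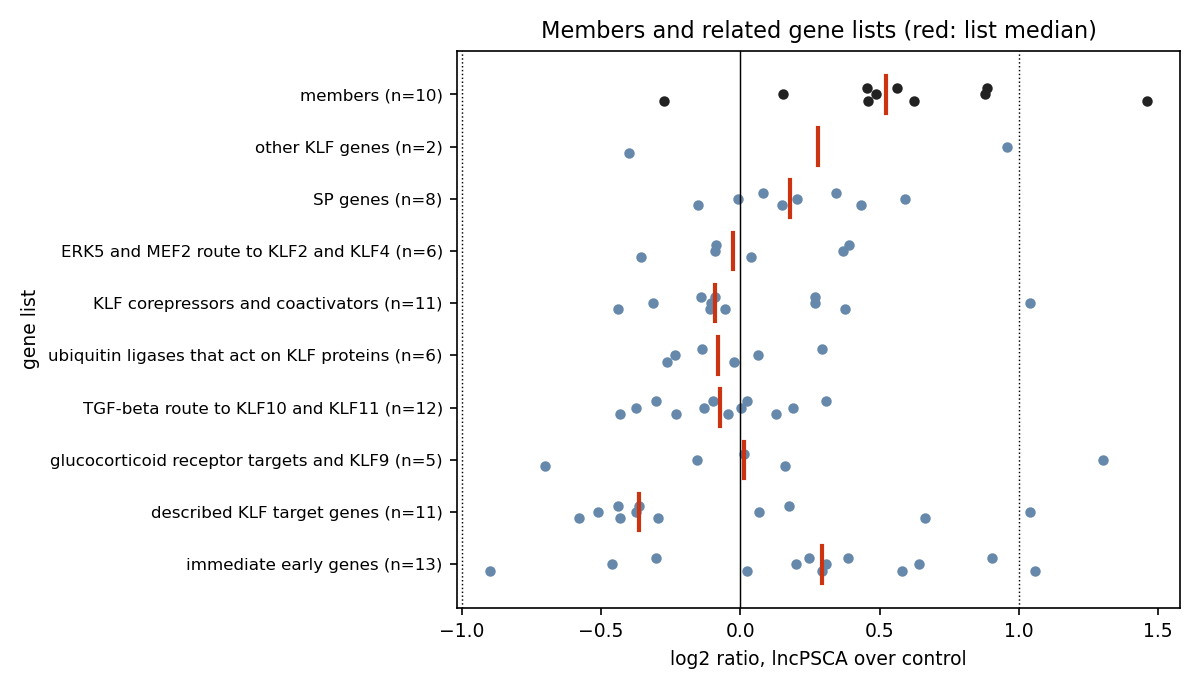
Log2 ratio of lncPSCA over control for every measured gene of the members and 9 related lists; each point is a gene and red bars are list medians. The members' median (0.52) is the highest of the 10 lists and that of described KLF targets (-0.36) the lowest.

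Glucocorticoid-responsive genes other than KLF9 were mixed. TSC22D3, an anti-inflammatory glucocorticoid target, was the only one of 5 measured genes of 7 to meet the rule, with 2491 reads in lncPSCA and 907 in control, 2.46-fold (2.28 to 2.66). DUSP1 of the same list went the other way, short of the rule, with 555 reads in lncPSCA and 811 in control, 0.614-fold (0.550 to 0.685). As reported, 3 of the 5 had a log2 ratio above 0 and 2 below, beside 48.1% of all measured genes above 0. The list median was 0.01 and turned negative when centred along length (-0.17). The receptor gene NR3C1 had 3 reads in lncPSCA and 2 in control. Of 14 described KLF target genes, 11 were measured, and CDKN1A, the cell cycle inhibitor p21 that KLF4 and KLF6 are known to activate, met the rule and the other 10 did not. CDKN1A had 723 reads in lncPSCA and 315 in control, 2.06-fold (1.80 to 2.36). It is also a p53 target. The list median was -0.36, with 4 of the 11 genes above 0 and 7 below, beside the same 48.1% of all measured genes above 0. No gene of the list met the rule as lower. Immediate early genes, with which several KLFs are induced, had a median of 0.29 over 13 measured genes of 16. ATF3 was the only one of them to meet the rule, at 123 CPM in lncPSCA and 58.8 in control, 2.08-fold (1.95 to 2.23). Over the measured genes of all 7 of these regulator, target and immediate early lists, none met the rule as lower, against 0.596% of all measured genes. With a share that small, the absence of such genes says little about these lists. As higher, KAT2B (of 11 measured genes), TSC22D3 (of 5), CDKN1A (of 11) and ATF3 (of 13) met it, against 3.02% of all measured genes. A single gene in a list of this size says little about the list.

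**Figure D5:**
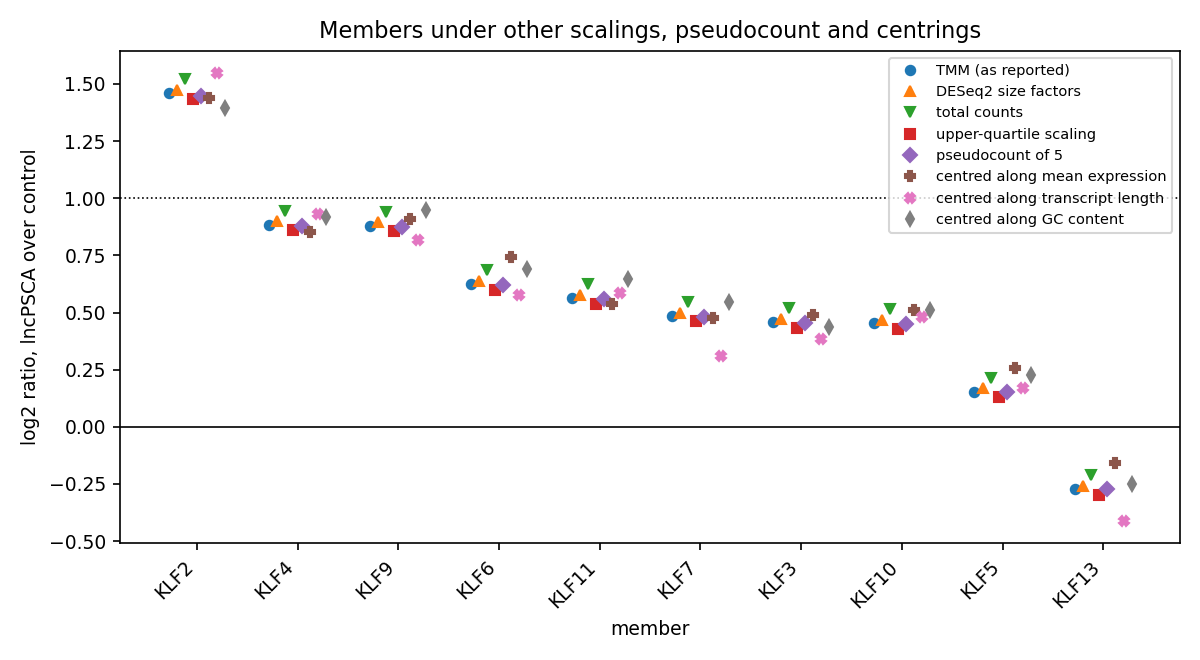
Log2 ratio of lncPSCA over control of each member, ordered by the reported value, under TMM, 3 other scalings, a larger pseudocount and 3 centrings. KLF2 stays above the dotted line at 1 in each, KLF4 to KLF5 stay between 0 and 1, and KLF13 stays below 0.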

How the data were processed

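The authors deposited 1 table of raw read counts per Ensembl gene with 1 column per library; per the submitters' processing notes TopHat2, HTSeq and hg19 were used, with no versions or settings. Totals were 23016646 reads for lncPSCA and 21552098 for control. Symbols came from a table of gene identifiers, which matched 52181 of 63677 rows (81.9%); unmatched rows stayed in the totals. Counts were scaled by TMM (edgeR 4.0.16), with factors of 1.02 for lncPSCA and 0.979 for control, and analysed in Python 3.11.15 (scipy 1.17.1, pandas 2.3.3); DESeq2 1.42.0 gave an alternative size factor. Fold intervals are exact (Clopper-Pearson, 95%) and cover counting error only; molecular identifiers are not mentioned, so reads need not be independent molecules. With 1 library per group no test was made and no p-value is given. The calculation was tested on simulated data. Centring subtracts a running median over 501 genes. Lengths and overlaps came from GENCODE release 29 (GRCh38), matched by identifier. Pseudogenes were aligned with Biopython 1.88.

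The members, the lists and the size rule were chosen with earlier results of these data known. All 10 members and all other KLF and SP genes with reads are named; of each related list, members that met the size rule (at most 4), or otherwise its 2 most abundant. Outside that rule, CCL5, NR3C1, TGFBR2, DUSP1, the pseudogenes and the overlapping genes were named after their values were seen, as were the markers given with values. Alternatives were 3 scalings, 2 CPM minimums, a pseudocount of 5, a 1.5-fold rule, 3 assumed coefficients of variation and centring along mean expression or length; centring along GC content and adding pseudogene reads to KLF2 were chosen after seeing the data. Protein features of the members were planned and not analysed here.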

Additional observations from a re-analysis of the deposited data

How the results depend on the processing

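Under all 14 alternatives, the median log2 ratio of the members stayed between 0.50 and 0.60, each member kept its sign, and no member met the size rule as lower. The count of members that met it as higher was 1 (KLF2) except with a 1.5-fold limit and an interval beyond 1.2, where it was 4 (KLF2, KLF4, KLF6 and KLF9) beside 8.82% of measured genes, and at 0.4 for the assumed coefficient of variation, where it was 0. Over all measured genes, 467 were higher and 92 lower. The 1.5-fold limit gave 1362 and 708, a minimum of 5 CPM 284 and 46, an assumed coefficient of variation of 0.2 gave 214 and 27, and one of 0.4 gave 102 and 5. Without a CPM minimum 150 genes were lower. Each of these settings makes the rule stricter or looser for the same counts. Of 1374 values of 99 named genes under the alternatives, 71 moved beyond their counting interval. The ratio of 20 of the genes changed sign under at least 1 of 6 scalings and centrings, among them SP1, SP2, SP9, MEF2D, SMAD2, SMAD4, CREBBP, CTBP1 and FKBP5; 0 of these 20 met the size rule. No paired analysis was possible because each group has 1 library, and for the same reason no library could be left out. Depth limits KLF1, KLF8 and KLF15, where 3 reads, the limit that a count of 0 allows, correspond to 0.128 CPM in lncPSCA and 0.142 CPM in control.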
